A study of Rattus norvegicus with 8 samples.

Results

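The core enzymes of peroxisomal beta-oxidation were followed in rat liver as 9 genes: the oxidases Acox2 and Acox3, the hydratase-dehydrogenases Ehhadh and Hsd17b4, the thiolases Acaa1a, Acaa1b and Scp2, the racemase Amacr and the catalase Cat. They were taken by symbol, as every array probe whose RefSeq accession maps to 1 of these genes, with no threshold on a measured value, although earlier results of these data were known. This gave 11 of 30367 probes, with 2 probes each for Acaa1a and Acaa1b and 1 for each of the others, among 15154 genes with a symbol on the array. Both groups were adult male Sprague-Dawley rats. For 28 days, 4 of them ate control diet and 4 ate diet containing PFOS (perfluorooctanesulfonate, a persistent fluorinated surfactant) at 50 mg/kg. Each rat had its own two-colour array. Its liver RNA was read in the red Cy5 channel, and the green Cy3 channel held a universal rat reference RNA that was the same on every array. The comparison asks which of these transcripts differed with PFOS in the diet. Values are log2 ratios of Cy5 over Cy3, and log2 signals of each channel alone. A change is PFOS minus control on the log2 scale. A probe is called where the limma test, adjusted over all 16952 tested probes by the Benjamini-Hochberg method, gives a p under 0.05.

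Peroxisomes shorten very long-chain and branched fatty acids and the side chains of bile acid precursors by removing acetyl or propionyl units. An acyl-CoA oxidase takes the first step and passes electrons to oxygen, which yields hydrogen peroxide for catalase to break down. A bifunctional enzyme then hydrates and oxidises the chain, and a thiolase cuts it. Ehhadh and the Acaa1 thiolases serve mainly straight chains and are known targets of the fatty acid receptor PPARA in rodent liver. Acox2 serves mainly bile acid intermediates. Scp2 and Amacr serve mainly branched chains and bile acid intermediates, and Hsd17b4 serves these among others.

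The promoters of Ehhadh, Acaa1b, Acaa1a and Cat are shown because the probes assigned to the first 2 rose, the probes of the third disagreed and the last did not pass the test. Each runs from 250 bases before to 50 bases after the RefSeq gene start (GRCr8), 5′ to 3′ on the gene's strand, with capitals for the CCAAT box, for the GC box GGGCGG and for the receptor core motif AGGTCA, on either strand.
Ehhadh (chr11:92746159-92746458, plus strand): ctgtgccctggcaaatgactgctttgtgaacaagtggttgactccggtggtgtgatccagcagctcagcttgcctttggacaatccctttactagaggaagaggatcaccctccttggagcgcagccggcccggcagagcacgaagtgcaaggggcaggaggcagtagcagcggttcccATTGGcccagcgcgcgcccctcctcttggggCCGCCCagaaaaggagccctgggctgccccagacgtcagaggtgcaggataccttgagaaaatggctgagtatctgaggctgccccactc
Acaa1b (chr8:127759520-127759819, minus strand): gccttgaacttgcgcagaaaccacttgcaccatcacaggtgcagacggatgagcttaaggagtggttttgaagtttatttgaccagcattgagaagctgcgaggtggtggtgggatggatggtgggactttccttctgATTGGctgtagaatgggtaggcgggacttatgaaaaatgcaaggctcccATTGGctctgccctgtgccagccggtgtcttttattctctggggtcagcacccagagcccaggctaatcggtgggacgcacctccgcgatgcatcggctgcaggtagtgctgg
Acaa1a (chr8:127957231-127957530, plus strand): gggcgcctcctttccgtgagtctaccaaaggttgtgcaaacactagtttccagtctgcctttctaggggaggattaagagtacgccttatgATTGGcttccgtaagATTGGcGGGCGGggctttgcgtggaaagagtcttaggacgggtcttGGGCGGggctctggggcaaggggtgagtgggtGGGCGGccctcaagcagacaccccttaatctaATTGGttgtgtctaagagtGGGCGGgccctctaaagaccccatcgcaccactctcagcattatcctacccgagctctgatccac
Cat (chr3:110329477-110329776, minus strand): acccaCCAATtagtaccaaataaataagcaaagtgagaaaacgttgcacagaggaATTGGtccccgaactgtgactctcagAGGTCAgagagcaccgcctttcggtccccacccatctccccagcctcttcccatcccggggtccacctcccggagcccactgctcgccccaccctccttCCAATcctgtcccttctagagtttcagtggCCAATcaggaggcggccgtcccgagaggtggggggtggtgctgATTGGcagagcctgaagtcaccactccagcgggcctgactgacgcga
The direct repeat AGGTCANAGGTCA, the form that PPARA and its partner bind, was searched on both strands, and the core motif AGGTCA lies within it. The core motif alone was in 3 of 9 members, Hsd17b4, Amacr and Cat, and in 16.2% of all promoters. No member's promoter held the full direct repeat exactly, against 0.0538% of 33469 promoters. With up to 2 mismatches the direct repeat was matched in Cat, at position -169, and in Amacr, at position -208, against 3.77% of all promoters. Positions count bases from the gene start. GGGCGG was in 6 of 9 members and in 33.1% of all promoters. Acaa1a held 4 copies of it and Acaa1b none, although these genes lie on 1 chromosome with 8 annotated genes between them. An alignment of both promoters had 177 identical bases in 345 columns (51.3%). CCAAT was in 5 of 9 members and in 37.5% of all promoters, and TATAAA was in none of the 9 and in 14.2% of all. These matches describe the letters of this window alone.

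In the Cy5 channel the probes assigned to Ehhadh and Acaa1b rose, that of Hsd17b4 rose less, and the oxidases, Scp2, Amacr and Cat did not pass the test. Of 11 member probes, all of them tested, 5 were called in Cy5, against a background of 4.70% of all tested probes. All 5 were higher in PFOS rats, where 2.37% of all tested probes were. In the ratio 6 were called, against 3.74%. Of these 5 were higher, against 1.74%, and 1 was lower, as were 339 of the 16952 tested probes. The 5 called higher were the same probes in both readouts, those of Ehhadh and Hsd17b4, both probes of Acaa1b and 1 of the 2 of Acaa1a. The median change of the member probes, with 2 probes each for Acaa1a and Acaa1b, was 0.58 in Cy5 and 0.43 in the ratio. Over all tested probes the medians were -0.004 and -0.01. The uncalled member probes changed by -0.13 (Scp2) to 0.03 (Acox3) in Cy5, apart from Acox2 (0.74). With 1 probe a gene, 3 of 9 members were called in Cy5, all higher, beside 745 of 15440 probes. In the ratio 4 of 9 were called, 3 higher and 1 lower, beside 614 of 15440. In the Cy3 channel 1 member probe was called, that of Ehhadh, against 0.0767% of all tested probes, and it was higher, against 0.0590%. The groups were fully separated for 6 member probes in Cy5 (13.0% of all tested probes), for 6 in the ratio (12.6%) and for 2 in Cy3 (2.58%).

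**Figure D1:**
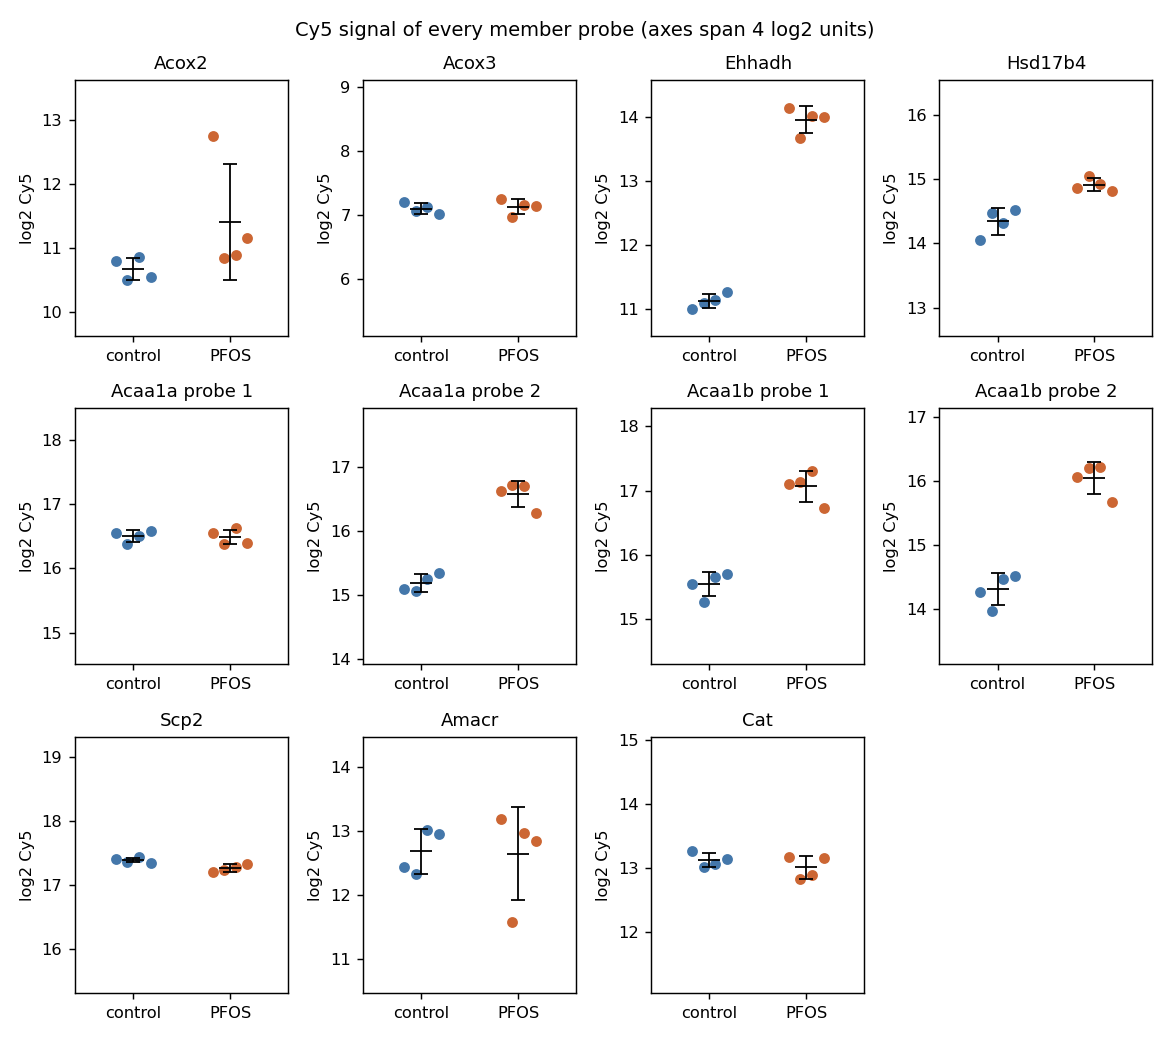
Log2 Cy5 signal of the 11 member probes, 1 point per rat, with the mean and SD of each group (n = 4); every vertical axis spans 4 log2 units, and levels of different probes are not comparable. The PFOS rats stand above the controls for Ehhadh, Hsd17b4, Acaa1a probe 2 and both Acaa1b probes, and narrowly below them for Scp2. For Acox2 1 PFOS rat stands apart, as does 1 for Amacr.

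**Figure D2:**
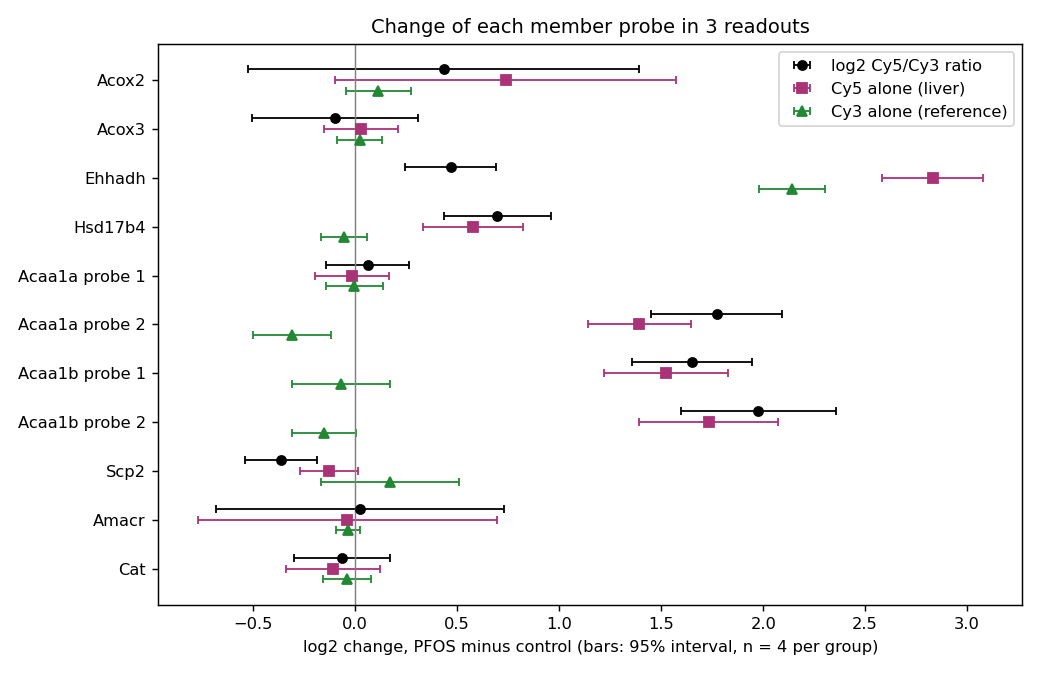
Log2 change, PFOS minus control, of each member probe in the ratio (circles), Cy5 (squares) and Cy3 (triangles), with 95% intervals from limma. The Ehhadh change is 2.83 in Cy5, 2.14 in Cy3 and 0.47 in the ratio, while for the other probes the Cy3 change lies between -0.31 and 0.17.

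Ehhadh, a peroxisomal bifunctional enzyme of straight-chain oxidation, had the largest Cy5 change of the members. Its log2 Cy5 signal was 11.00, 11.10, 11.14 and 11.27 in controls 1 to 4, and 14.14, 13.66, 14.02 and 14.00 in PFOS rats 1 to 4. All PFOS rats were above all controls. The change of 2.83 (SE 0.11, limma adjusted p = 2.58e-06) corresponds to 7.12-fold, and only 2 of the 16952 tested probes had a smaller p in Cy5. Over 13 other settings and with each array left out, the Cy5 change was between 2.62 and 2.93, and it was called in all of them.

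The ratio of Ehhadh moved far less, and its reference signal moved as well. Its log2 Cy3 signal was 7.67, 7.68, 7.95 and 7.84 in the controls and 9.95, 9.79, 9.97 and 9.99 in the PFOS rats. That Cy3 change of 2.14 (SE 0.07, limma adjusted p = 1.24e-05) had the smallest p of all tested probes in Cy3. Before normalization the spots read 171.5 to 212.75 units in Cy3 in controls and 857.75 to 975 in PFOS rats, while the median Cy3 background of these arrays was 25.5 to 30 units. In Cy5 they read 1889 to 2848.5 and 12037.25 to 23871.25 units. The ratio was 5.33, 5.52, 5.19 and 5.44 in controls and 5.96, 5.67, 5.89 and 5.81 in PFOS rats, so that the groups did not overlap. Its change was 0.47 (SE 0.10, limma adjusted p = 0.0365), or 1.38-fold. The ratio call was lost without control 1, 3 or 4 or without PFOS 1, 3 or 4, with changes of 0.41 to 0.49. It was also lost in 9 of 14 other settings, among them slide column as a block (0.47), the authors' deposited table (0.22), normexp at offset 0 (0.03) and the scanner software's processed signals (-0.18). Since the reference RNA was the same on every array, the Cy3 signal of this probe is no steady base for its ratio, and why it moved was not tested. Whether what moved Cy3 also entered the Cy5 change of this probe was not tested either. Across the array 12 other probes were called in Cy3, and for all 13 the Cy5 change had the same sign and was called.

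**Figure D3:**
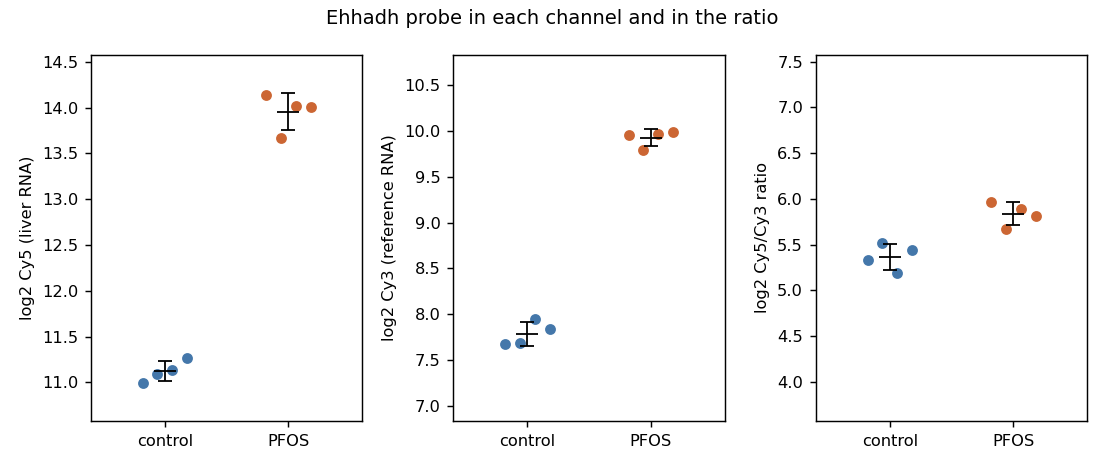
Log2 Cy5 signal, log2 Cy3 signal and log2 ratio of the Ehhadh probe, 1 point per rat, with the mean and SD of each group (n = 4); each axis spans 4 log2 units. Both channels are higher in all 4 PFOS rats, and the change is 0.47 in the ratio beside 2.83 in Cy5.

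Hsd17b4, a bifunctional enzyme that serves branched chains and bile acid intermediates among others, rose in both readouts and was not called in Cy3. Its log2 Cy5 signal was 14.06, 14.48, 14.32 and 14.52 in controls and 14.87, 15.05, 14.94 and 14.82 in PFOS rats. Every PFOS rat was above every control. The change was 0.58 in Cy5 (SE 0.11, limma adjusted p = 0.0184), or 1.49-fold, and 0.70 in the ratio (SE 0.12, limma adjusted p = 0.0133), or 1.62-fold. The ratio was 3.23, 3.63, 3.49 and 3.56 in controls against 4.20, 4.38, 4.15 and 3.96 in PFOS rats. Its Cy3 change was -0.06 (SE 0.05). The ratio call was lost with median centring (0.73) and with slide column as a block (0.70), and within slide row 1 (0.86 in the ratio) and slide row 2 (0.53) neither readout passed. The Cy5 change of Ehhadh exceeded that of Hsd17b4 by 2.26, with SDs over rats of 0.14 in controls and 0.29 in PFOS (exact permutation p = 0.0286, two-sided, adjusted p = 0.0416 over 16 such differences). That p is the smallest that 4 against 4 allows. The pairs were set after the data were seen and some share a probe, so the adjusted p depends on which were put among the 16. In the ratio the difference was -0.23 and its p was 0.229 (exact permutation test, two-sided), which does not show that both changed alike. It was -0.68 with normexp at offset 0, -0.83 with processed signals and -0.44 in the authors' deposited table, each at the smallest p, but -0.17 with scaling between arrays and -0.05 with median centring, where it missed the threshold.

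Among the thiolases, which cut the shortened chain, both probes of Acaa1b rose, as did 1 of the 2 probes of Acaa1a. Acaa1b probe 1 read 15.55, 15.27, 15.65 and 15.70 in log2 Cy5 in controls and 17.10, 17.13, 17.30 and 16.73 in PFOS rats. Its change was 1.52 in Cy5 (SE 0.14, limma adjusted p = 0.000396) and 1.65 in the ratio (SE 0.13, limma adjusted p = 0.000374), or 2.88-fold and 3.14-fold. Acaa1b probe 2, with 1 spot per array, changed by 1.73 in Cy5 (SE 0.15) and 1.98 in the ratio (SE 0.17), and was also called in both. The change of probe 2 exceeded that of probe 1 by 0.21 in Cy5 and 0.33 in the ratio, each with the smallest exact permutation p of 0.0286 (adjusted 0.0416). With processed signals these differences were 0.089 and 0.087, and no longer passed.

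The 2 probes of Acaa1a, a thiolase whose RNA closely resembles that of Acaa1b, did not give the same result. Acaa1a probe 1 read 16.56, 16.38, 16.51 and 16.58 in log2 Cy5 in controls and 16.55, 16.39, 16.63 and 16.40 in PFOS rats, and the groups overlapped. Its change was -0.02 in Cy5 (95% interval -0.20 to 0.17) and 0.06 in the ratio (95% interval -0.14 to 0.27). Acaa1a probe 2 read 15.10, 15.06, 15.25 and 15.36 in controls and 16.63, 16.72, 16.71 and 16.29 in PFOS rats, with no overlap. Its change was 1.39 in Cy5 (SE 0.11, limma adjusted p = 0.000257) and 1.77 in the ratio (SE 0.14, limma adjusted p = 0.000409). In Cy3 it read 12.68, 12.67, 12.68 and 12.68 in controls and 12.15, 12.25, 12.49 and 12.56 in PFOS rats, a change of -0.31 (SE 0.08, limma adjusted p = 0.898) with no overlap, which adds to its ratio. Both probes carry 1 RefSeq accession. Their changes differed by 1.41 in Cy5 and 1.71 in the ratio (exact permutation p = 0.0286, adjusted p = 0.0416 for each), while Acaa1a probe 2 and Acaa1b probe 1 differed by 0.13 and -0.12 (exact permutation p = 0.0857 for each, which does not show that they are equal). That last pair reached the smallest p with processed signals in Cy5 (0.18) and without control 1 (0.16), and in the ratio with scaling between arrays (-0.12) and without PFOS 4 (-0.14). Probe sequences were not used here, and which of both transcripts each probe binds was not tested, so the direction for Acaa1a is unsettled and the value for Acaa1b is uncertain as to the gene. PFOS rat 4 had the lowest value of the 4 PFOS rats with the 3 probes that rose, at 5.58, 5.48 and 5.55 in the ratio, beside 5.91 to 6.21 in the other 3.

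**Figure D4:**
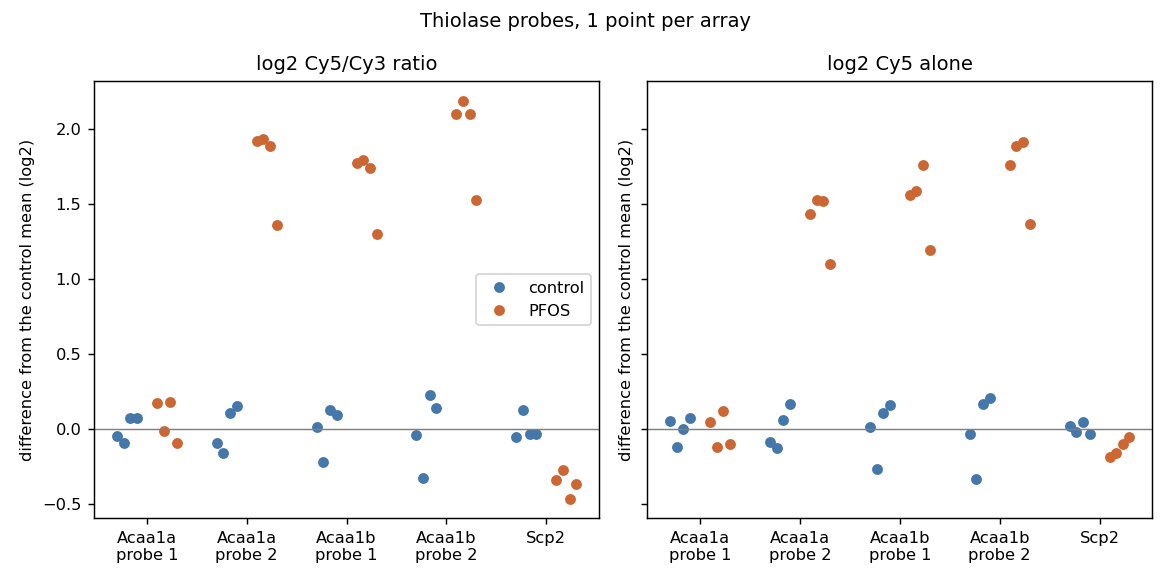
Difference of each rat from the control mean for the 5 thiolase probes, in the log2 ratio (left) and in log2 Cy5 (right), 1 point per rat. The mean differences of Acaa1a probe 2 and both Acaa1b probes in PFOS rats lie between 1.39 and 1.98, while Acaa1a probe 1 stays around 0 and Scp2 lies below it.

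Scp2, which codes for a thiolase of branched chains and for a sterol carrier, was the 1 member called lower, and in the ratio alone. Its ratio was 5.22, 5.40, 5.24 and 5.24 in controls and 4.93, 5.00, 4.81 and 4.91 in PFOS rats, with no overlap. The change was -0.36 (SE 0.08, limma adjusted p = 0.0391), or 1.29-fold lower. In Cy5 it was -0.13 (SE 0.06, limma adjusted p = 0.291), with values of 17.41, 17.37, 17.43 and 17.35 against 17.20, 17.23, 17.29 and 17.33. These groups did not overlap either, but the probe did not pass the test. Its Cy3 signal was 13.61 to 13.93 on the 4 arrays of slide row 1 and 14.06 to 14.34 on the 4 of slide row 2, each row with 2 arrays of each group, and the Cy3 change with diet was 0.17 (SE 0.15). This probe has 10 spots per array, whose ratios had an SD of 0.10 to 0.17 within an array. The ratio call was lost when any 1 array was left out, with changes of -0.39 to -0.32, and in 8 of 14 other settings, with changes of -0.39 to -0.20. The Cy5 change of Acaa1b probe 1 exceeded that of Scp2 by 1.65 (exact permutation p = 0.0286, adjusted p = 0.0416).

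Acox2, the oxidase of bile acid precursors, did not pass the test, and 1 PFOS rat set its mean. Its log2 Cy5 signal was 10.79, 10.50, 10.85 and 10.55 in controls, and 12.75 in PFOS rat 1 but 10.85, 10.89 and 11.15 in PFOS rats 2 to 4. The change was 0.74 (SE 0.37, limma adjusted p = 0.299) with all rats and 0.29 (SE 0.12, limma adjusted p = 0.259) without PFOS 1. In the ratio it was 0.43 (SE 0.43) with all rats and -0.06 without PFOS 1. The reference signal of this probe was well above background on 1 of 8 arrays, so its ratio rests on a dim base. Its SD among PFOS rats, 0.91 in Cy5, was above that of 99.5% of all tested probes. In controls the SD was 0.17.

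Acox3, an oxidase of branched chains, read 119.75 to 186.25 units in Cy5 over all arrays and did not pass the test. It was well above background in Cy5 on all 8 arrays and in Cy3 on 4. Its log2 Cy5 signal was 7.21, 7.06, 7.13 and 7.02 in controls and 7.25, 6.98, 7.16 and 7.14 in PFOS rats. The groups overlapped. The change was 0.03 in Cy5 (95% interval -0.15 to 0.21) and -0.10 in the ratio (95% interval -0.50 to 0.31). The change of Acox2 minus that of Acox3 was 0.71 in Cy5, with SDs over rats of 0.12 in controls and 0.82 in PFOS (exact permutation p = 0.0286, adjusted p = 0.0416), and 0.53 in the ratio (exact permutation p = 0.200). Without PFOS 1 the Cy5 difference was 0.30 (exact permutation p = 0.0571). It also missed the threshold without any 1 control (0.66 to 0.76), and with normexp at offset 0, processed signals or 75th percentile scaling (0.66 to 0.77). In the ratio it reached the smallest p without PFOS 2 (0.77), without background subtraction (0.72) and in the authors' deposited table (0.73).

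Amacr, the racemase that turns branched acyl-CoAs into the form the oxidases accept, varied more among rats than between diets. Its log2 Cy5 signal was 12.44, 12.33, 13.02 and 12.96 in controls and 13.19, 11.58, 12.97 and 12.85 in PFOS rats. PFOS rat 2 was the lowest of all 8, and controls 3 and 4 were above controls 1 and 2. The change was -0.04 in Cy5 (95% interval -0.77 to 0.69) and 0.02 in the ratio (95% interval -0.68 to 0.73), and without PFOS 2 it was 0.32 in Cy5 (SE 0.18, limma adjusted p = 0.401). The SD of 0.35 in controls and 0.73 in PFOS rats was above that of 94.2% and 98.9% of tested probes. The rats far from their group were thus different ones for Acox2 and Amacr.

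Cat, the catalase that breaks down the peroxide made by the oxidases, did not pass the test. Its log2 Cy5 signal was 13.27, 13.01, 13.06 and 13.14 in controls and 13.17, 12.82, 12.88 and 13.15 in PFOS rats. The change was -0.11 in Cy5 (95% interval -0.34 to 0.12) and -0.07 in the ratio (95% interval -0.30 to 0.17), so that these intervals do not reach the changes of Ehhadh, Hsd17b4 or the Acaa1b probes. Ratio changes ran from -0.12 to 0.13 over the other settings and with each array left out, with the value above 0 after scaling between arrays.

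In control liver the 9 member probes with a reference signal well above background on all 8 arrays had ratios above 0, that is, more signal in liver than in the reference RNA. Their mean log2 ratios in controls were between 3.48 for Hsd17b4 and 6.33 for Cat, each relative to its own probe's reference signal. The reference signals of Acox2 and Acox3 reached that limit on 1 and 4 arrays, and no such level is given for them. The ratio of Cat was 6.33 ± 0.10 (SD, n = 4) and that of Ehhadh 5.37 ± 0.14 (SD, n = 4). The SD among control rats in Cy5 was 0.04 for Scp2, below that of all but 3.25% of tested probes, and 0.35 for Amacr. The median over all tested probes was 0.13. These SDs are after quantile normalization, and Scp2 has 10 spots per array where Amacr has 2. Before normalization the Scp2 spots read 153113 to 196895 units in Cy5 in controls.

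The genes whose Cy5 profile lay closest to a member were found by the root mean square difference over 8 arrays, each gene centred on its control mean, among 9620 genes with a symbol. For Ehhadh they were Ces2c, a carboxylesterase (0.25), Aldh1a1, a retinal dehydrogenase (0.26), and Cyp4a1, a fatty acid omega-hydroxylase (0.30). Their Cy5 changes were 2.60, 2.56 and 2.54, and their Cy3 changes 0.18, 0.62 and 1.64. For Cat they were Slc25a1 (0.05), Twf2 (0.06) and Slc39a11 (0.06), with Cy5 changes of -0.14 to -0.10. For Scp2 they were Nup62 (0.03), Hp (0.03) and Mtfmt (0.04), with Cy5 changes of -0.12. The measure describes likeness on these arrays alone.

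Genes around the core pathway were taken from 6 lists, with 1 probe for each gene. Of all tested probes, 2.37% were called higher in Cy5 and 1.74% in the ratio. Of 16 tested auxiliary and exit enzymes 8 were higher in Cy5 and none lower (median change 0.43), and 7 were higher in the ratio. Of the 8, 1 was lost in 8 of 13 other settings and with 6 of 8 arrays left out in turn. Of the 7, 1 was lost in 10 of 14 other settings and with each array left out, so that 6 remained. Among them Ech1, which handles double bonds, rose by 1.92 in Cy5 (SE 0.16) and Decr2, a dienoyl-CoA reductase, by 1.14 (SE 0.08). The carnitine acyltransferase Crot, which prepares shortened chains for export, rose by 1.63 (SE 0.25), and the thioesterase Acot4 by 1.40 (SE 0.13). All 16 values were above 0, with the lowest at 0.06.

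Of 8 genes of transport into the peroxisome and activation, 3 were higher in Cy5 and none lower (median 0.28). These were the acyl-CoA synthetases Acsl4 (0.77, SE 0.08) and Slc27a2 (0.61, SE 0.08) and the transporter Abcd3 (0.47, SE 0.09), while in the ratio Slc27a2, at 0.47, did not pass. The Cy5 call of Abcd3 was lost without PFOS 1, with processed signals and with slide column as a block. Acsl1, another synthetase, was at 0.27 in Cy5 and 0.35 in the ratio and was not called. Other enzymes of the peroxisome matrix moved in few cases, with 1 of 15 higher in Cy5 (median 0.08), the epoxide hydrolase Ephx2 (1.45, SE 0.19). In the ratio Ephx2 was higher and Hao1, a hydroxyacid oxidase, lower (-0.45, SE 0.10). Those ratio calls were lost with 6 and 7 of the 8 arrays left out in turn, and in 6 and 10 of 14 other settings. Prdx5, a peroxiredoxin, was at 0.16 in Cy5 and not called.

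Of 14 import receptors, division and membrane genes, 2 were higher in Cy5 (median 0.11). They were Pex11a, a division factor (1.43, SE 0.21), and Pex7, a receptor that imports thiolases among others (0.35, SE 0.08), and Pex7 did not pass in the ratio (0.30, limma adjusted p = 0.0820). Its Cy5 call was lost in 9 of 13 other settings, slide row and slide column as blocks among them, and with 7 of the 8 arrays left out in turn (all but control 1), with changes of 0.28 to 0.42 over all of these runs. That of Pex11a was lost in 1 of 13, within slide row 2. The list of mitochondrial beta-oxidation enzymes, which also holds the carnitine acyltransferases Cpt1a and Cpt2, had 5 of 12 higher in Cy5 (median 0.30) and 7 in the ratio (median 0.43). The 7 became 2 with median centring, 4 with scaling between arrays or slide column as a block and 4 without control 1, and the 5 became 3 without PFOS 1. Acat1 rose by 0.83 in Cy5 (SE 0.09), Cpt2 by 0.74 (SE 0.09) and Hadhb by 0.65 (SE 0.09). The largest Cy5 change on that list was 0.83, beside 2.83 for Ehhadh, the largest among the members. Of the 9 members, 3 were called in Cy5 with 1 probe a gene. The difference between the lists was not tested.

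Of 9 receptors and coregulators, 1 was called, Pparg, which rose by 1.03 in Cy5 (SE 0.18) and 1.01 in the ratio. Its ratio call was lost without control 1 and with slide column as a block, and in both readouts within either slide row. Ppara itself, the receptor that induces the pathway, was at -0.25 in Cy5 (SE 0.29) and -0.50 in the ratio (SE 0.44) and did not pass. Nr1i3 was at 1.50 in Cy5 (SE 0.42, limma adjusted p = 0.0805) and did not pass either.

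**Figure D5:**
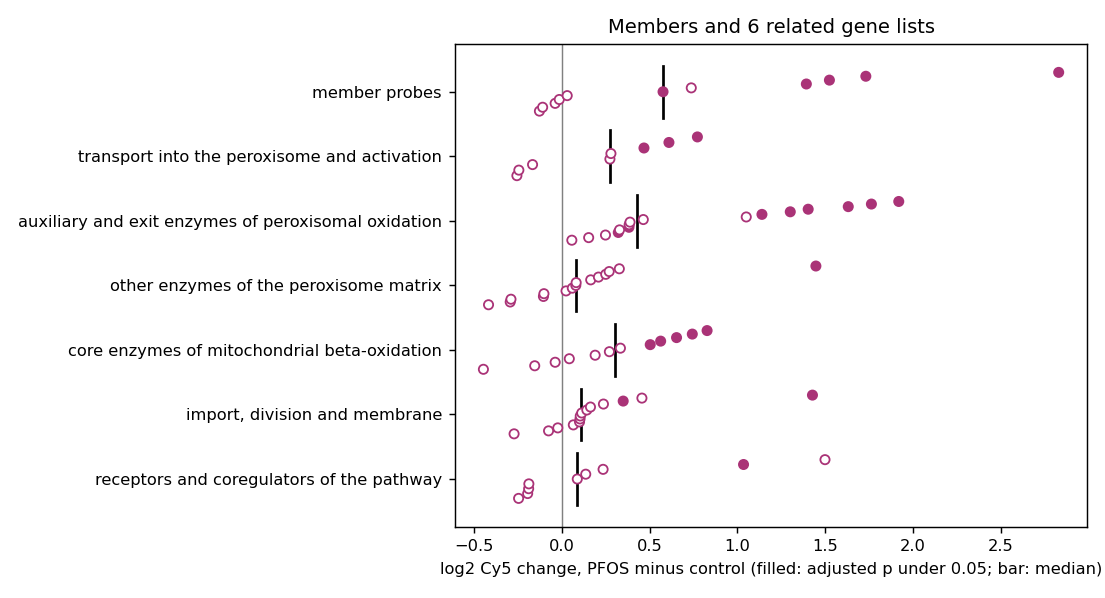
Log2 Cy5 change, PFOS minus control, of the 11 member probes and of the genes on 6 related lists, 1 point per probe or gene; filled points have a limma adjusted p under 0.05 and bars are medians. The members' median of 0.58 is over 11 probes, with 2 each for Acaa1a and Acaa1b. It is therefore not on the same basis as the list medians, which use 1 probe a gene. With 1 probe a gene the members' median is 0.03, the value of Acox3. The list medians are 0.43 for the auxiliary and exit enzymes and 0.08 for other matrix enzymes.

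The arrays had median Cy5 signals of 116 to 160 units and median Cy3 signals of 339 to 373, and 50.4% to 59.1% of probes passed the detection limit in Cy5. All 10 markers of hepatocytes were detected above background on every array, and none was called in Cy5 or in the ratio. Of the markers of other liver cells, none of the tested ones (9 of 9 for macrophages, 5 of 8 for endothelium, 7 of 8 for stellate cells and 4 of 6 for bile duct) was called in Cy5 or in the ratio. Their summed Cy5 level was 24639 to 40701.4 units in controls and 21756.2 to 33692 in PFOS rats for macrophages, and 6939.01 to 12614.9 and 5325.24 to 7588.03 for endothelium. It was 12320 to 15582.5 and 11987.8 to 13416 for stellate cells, and 934.942 to 1166.51 and 1157.33 to 1389.07 for bile duct. The tested markers were all well above background on every array, and their part in the members' changes was not tested. In whole liver, a changed share of hepatocytes and a changed amount of RNA per cell cannot be told apart.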

How the data were processed

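Two-colour Agilent arrays of 4 control and 4 PFOS rats had 62976 spots each, 4259 of them control spots. The deposited scanner files hold spot intensity values on a linear scale, and per the file headers they were made with Agilent Feature Extraction 10.7.3.1. Liver RNA was in Cy5 and reference RNA in Cy3 throughout, with no dye swap, per the labels. A table of values that the authors deposited is in log2 ratios, whose columns correlated at 0.995 to 0.997 with the loess-normalized ratio without background subtraction, so scale and direction are known. Its column medians were, for controls 1 to 4 and then PFOS rats 1 to 4, -0.0480, -0.0539, -0.0518, -0.0568, -0.0518, -0.0609, -0.0610 and -0.0527, and its centring is unknown.

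Median signals were corrected with normexp at offset 50, and ratios were normalized by loess within arrays. Each channel alone was quantile normalized between arrays. Between 733 and 991 outlier spots per array were dropped, none being saturated, before averaging spots by probe. The 16952 of 30367 probes that cleared background in Cy5 on 4 or more of the 8 arrays were tested, each for itself, with limma 3.58.1 in R 4.3.3 (data.table version 1.17.8). The labels name separate rats. Differences between probes were tested by exact permutation over arrays, a test added after the data were seen, as were its alternatives and the gene-by-gene reading of the lists' alternatives. Accessions were matched to RefSeq symbols of GRCr8, which named 18004 probes, and promoters are RefSeq's, with matches for all 9 genes. Promoters were aligned with Biopython 1.88. The steps were tested on simulated data. Members and lists were chosen with earlier results of these data known. Of the lists, up to 4 genes by p in the ratio and 3 in Cy5 could be named, beside every member probe and the 3 genes most like Ehhadh, Cat and Scp2. The number of arrays limits the precision: the median SE of a change was 0.11 in the ratio and 0.10 in Cy5. All arrays came from 1 slide. Alternatives were other background corrections, normalizations, filters, variance models, slide blocks, slide rows alone, the authors' values, 1 probe a gene and each array left out.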

Additional observations from a re-analysis of the deposited data

Results flagged for a closer look

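In 66 groups of 4 values (11 member probes, 3 readouts, 2 diets), 6 had 1 sample far from the others by Dixon's criterion, where chance gives about 1 in 20. PFOS 4 was lowest in the ratio with Acaa1a probe 2 (5.58, nearest 6.11), Acaa1b probe 1 (5.48, nearest 5.91) and Acaa1b probe 2 (5.55, nearest 6.12), and whether these 3 probes share a target was not tested. Without PFOS 4 all 3 remained called in the ratio, as with any other array left out. PFOS 1 was highest with Acox2 in Cy5 (12.75, nearest 11.15) and with Acox3 in the ratio (1.88, nearest 1.25). Control 2 was highest with Scp2 in the ratio (5.40, nearest 5.24).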

How the results depend on the processing

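No paired analysis was possible because the labels give no replicate number that both groups share. Calls of the Acaa1b probes and of Acaa1a probe 2 were kept in every planned setting they entered and with every array left out, except within slide row 2, where all 3 were lost in both readouts. The 634 probes called in the ratio became 261 with median centring, 417 with scaling between arrays, 293 with slide column as a block, and 108 and 36 within slide rows 1 and 2, and 369 to 551 with 1 array left out (369 without control 1, 401 without control 2, 414 without control 3, 400 without PFOS 1 and 384 without PFOS 3). In Cy5 796 became 436 with 75th percentile scaling, 494 with slide column as a block, 124 and 28 within the rows, and 455 to 719 with 1 array left out (522 without control 4 and 455 without PFOS 1). In Cy3 13 became 24 with loess then Aquantile, 3 and 2 within the rows, and 8 (without control 1) to 18 with 1 array left out. The causes were not tested. Fewer samples entered within rows. Of member probes, 6 called in the ratio became 3 with slide column as a block, 3 in slide row 1 and 0 in slide row 2 (limma; no member probe passed there, and 36 of all probes did), and 4 or 5 with 1 array left out. The 5 in Cy5 became 3 with 1 probe a gene, where fewer probes entered, and 1 in slide row 2, and remained 5 with any 1 array left out.

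Of called values 1 turned its sign, Ehhadh in the ratio with processed signals (-0.18). Uncalled values turned too. In the ratio these were Acox2, from 0.43 to -0.090 with normexp at offset 0, Amacr with processed signals (-0.013) and in slide row 2 (-0.017), Cat with scaling between arrays (0.13) and Acaa1a probe 1 in slide row 2 (-0.030). In Cy5 they were Acaa1a probe 1 with processed signals (0.057), 75th percentile scaling (0.084) and loess then Aquantile (0.047), Acox3 with processed signals (-0.0051), loess then Aquantile (-0.0063) and in slide row 1 (-0.019), and Amacr with 75th percentile scaling (0.0021). In Cy3 they were Amacr (0.0057) and Acaa1a probe 1 (0.0023) with processed signals, Cat with 75th percentile scaling (0.0015) and in slide row 2 (0.014), Acox3 in slide row 1 (-0.042), and Acaa1b probe 1 (0.074), Hsd17b4 (0.0081) and Acaa1a probe 1 (0.066) in slide row 2. With 1 array left out, changes ran from -0.15 to 0.36 for Amacr, -0.060 to 0.72 for Acox2 and -0.26 to 0.0012 for Acox3 in the ratio. They ran from -0.22 to 0.32 for Amacr, -0.060 to 0.019 for Acaa1a probe 1 and -0.011 to 0.082 for Acox3 in Cy5, and from -0.15 to 0.012 for Acaa1b probe 1, -0.040 to 0.042 for Acaa1a probe 1 and -0.010 to 0.050 for Acox3 in Cy3. List counts with 1 array left out were 7 to 9 for auxiliary and exit enzymes and 3 to 5 for mitochondrial enzymes in Cy5, 4 to 6 for the latter in the ratio, 0 to 2 for other matrix enzymes in the ratio, where 2 were called with all arrays, and 1 to 3 for import, division and membrane genes in Cy5, where 2 were.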
